A study of Mus musculus with 6 samples.

Results

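The Ms4a genes encode small proteins that cross the membrane repeatedly, a family named membrane-spanning 4-domains subfamily A, and 8 of them were followed in a mouse dendritic cell line exposed to poly(I:C): Ms4a1, Ms4a4b, Ms4a4c, Ms4a4d, Ms4a6b, Ms4a6c, Ms4a6d and Ms4a7. They are 8 of the 32903 gene symbols of the table and 8 of its 21 symbols that start with Ms4a, and they were picked with their untreated and treated values in view, so their differences between the groups are described here and not tested. The line, MuTuDC1940, is a mouse dendritic cell line used as a model of type 1 conventional dendritic cells (cDC1). Poly(I:C), a synthetic double-stranded RNA that mimics viral RNA, was added at 5 µg/ml for 18 hours, and untreated cells of the same line are the controls. The series holds 6 samples, 3 per group, and 2 libraries per group are used, headed NT01 and NT02 (untreated) and PolyIC01 and PolyIC02 (treated). Of 8 listed cDC1 markers all reached the expression limit (a mean of 0.5 TPM over the 4 libraries), and 7 had at least 71.3 TPM in every library. Irf8, the transcription factor gene that sets up the cDC1 lineage, lay between 2477 and 2639 TPM (an abundance per length of transcript, scaled to the same total of 1000000 in each library) in the 4 libraries, and Xcr1, the chemokine receptor gene typical of cDC1, between 190.6 and 335 TPM. Itgae, which encodes CD103, was near the limit at 0.490 to 0.918 TPM. With treatment 4 of the 8 rose in limma (Xcr1, Clec9a, Cadm1 and Irf8), 2 fell and 2 did not pass. Of all genes tested 28.4% rose and 32.4% fell. Xcr1 rose from 192 ± 2.53 to 331 ± 6.38 TPM (adjusted p = 1.1e-05 in limma), while Irf8 only just passed (adjusted p = 0.0497). Tlr3 fell from 253 ± 11.0 to 144 ± 10.7 TPM and Batf3 from 144 ± 1.74 to 117 ± 3.999 TPM (adjusted p = 0.000172 and 0.000772 in limma).

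MS4A proteins sit in the plasma membrane and in endosomes, often beside immune receptors whose signals they adjust. The best known are CD20, the product of Ms4a1 and the target of antibodies against B cells, and the beta chain of the IgE receptor, the product of Ms4a2 in mast cells. Others are carried by macrophages, monocytes and T cells, and in the mouse nose several of them, Ms4a6c among them, act as receptors for odours in necklace sensory neurons. Most of the genes lie side by side, which here means a stretch of 678.6 kb on chromosome 19 (10962289 to 11640851, GRCm38, RefSeq annotation) that holds all 21 Ms4a symbols. The members lie in its distal part, between 295.6 and 633.4 kb from its first gene (gene centres), in the order Ms4a1, Ms4a7, Ms4a4c, Ms4a4b, Ms4a6c, Ms4a6b, Ms4a4d and Ms4a6d. Ms4a7 spans 11321039 to 11336146 (minus strand), Ms4a4c 11404717 to 11427246 and Ms4a6c 11469353 to 11487182 (both plus strand).

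Pairs of members are alike in the bases ahead of their starts, and they are shown because their levels behaved differently in these libraries. RefSeq promoter windows (GRCm38.p6) were matched for 6 of the 8 members, giving 7 windows, of which the 250 bases before the start are used. Among the 21 pairs of windows, those of Ms4a4b with Ms4a4c and of Ms4a6b with Ms4a6c had the most identical bases in their best local alignment. These were 184 of 251 aligned positions (73.3%) for Ms4a4b and Ms4a4c, and 152 of 182 (83.5%) for Ms4a6b and Ms4a6c, against at most 105 in the other 19 pairs. Each sequence below runs 5′ to 3′ on the plus strand, and the capitals mark the longest run that the window shares with its partner, 20 bases in the first pair and 48 bases in the second (no other pair shared more than 9). They lie at chr19:11443308-11443557 (Ms4a4b), chr19:11407411-11407660 (Ms4a4c), chr19:11518309-11518558 (Ms4a6b) and chr19:11469118-11469367 (Ms4a6c).
Ms4a4b: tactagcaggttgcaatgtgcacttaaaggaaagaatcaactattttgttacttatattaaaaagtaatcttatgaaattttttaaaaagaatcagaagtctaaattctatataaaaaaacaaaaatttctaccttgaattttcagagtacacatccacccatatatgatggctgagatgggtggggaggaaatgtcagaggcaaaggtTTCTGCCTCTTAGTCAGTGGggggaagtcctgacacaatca
Ms4a4c: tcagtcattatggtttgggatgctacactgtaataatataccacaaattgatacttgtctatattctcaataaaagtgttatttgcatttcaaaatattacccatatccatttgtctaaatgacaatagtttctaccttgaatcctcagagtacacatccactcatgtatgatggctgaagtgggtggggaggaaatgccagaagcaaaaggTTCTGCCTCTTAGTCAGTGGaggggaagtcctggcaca
Ms4a6b: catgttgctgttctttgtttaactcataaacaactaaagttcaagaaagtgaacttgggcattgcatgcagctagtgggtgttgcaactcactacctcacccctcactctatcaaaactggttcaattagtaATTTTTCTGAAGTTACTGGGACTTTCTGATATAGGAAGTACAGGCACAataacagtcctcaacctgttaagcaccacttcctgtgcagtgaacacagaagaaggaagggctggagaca
Ms4a6c: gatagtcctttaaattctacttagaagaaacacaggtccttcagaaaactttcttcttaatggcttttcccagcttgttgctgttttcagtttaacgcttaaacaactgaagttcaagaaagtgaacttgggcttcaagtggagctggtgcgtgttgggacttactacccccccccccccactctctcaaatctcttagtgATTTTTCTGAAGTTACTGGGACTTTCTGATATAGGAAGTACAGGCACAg

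The shared run starts 41 bases before the start of Ms4a4b and 38 bases before that of Ms4a4c, while in the other pair it starts 118 bases before the start of Ms4a6b and 49 bases before that of Ms4a6c. Some letter patterns were then searched on both strands of the windows. A pair of GAAA with any 2 bases between them, a pattern bound by interferon regulatory factors, and TTCNNNGAA, bound by STAT factors, were found in none of the 7 windows, and in 2.98% and 7.02% of all 32851 windows of this length. TGANTCA, bound by AP-1, was found once, 81 bases before a start of Ms4a7, and in 6.75% of all windows. That window begins at 11334696, inside the span of Ms4a7. The other window of Ms4a7, which begins at 11336147 and lies just outside the 5′ end of the span, held no match. GAGGAA, a core bound by PU.1, stood 64 and 61 bases before the starts of Ms4a4b and Ms4a4c and in 23.3% of all windows. The window of Ms4a4c belongs to a start inside the gene, whose span begins upstream of it at 11404717. The window of Ms4a6c ends at 11469367, past the beginning of its span at 11469353. The end of its shared run therefore lies inside the span.

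The members were higher with poly(I:C). In each of the 8 genes the lower treated library exceeded the higher untreated one, which held for 38.9% of all 12520 genes tested; since this contrast chose the members, nothing is read from that count. The summed level of the 8 members was 54.3 and 53.9 TPM in NT01 and NT02 and 237 and 217 TPM in PolyIC01 and PolyIC02, a ratio of means of 4.198. Ms4a4d did not reach the expression limit, and 7 members did. The untreated means of these 7 alone were all above that limit. Their median difference was 1.42 on the log2(TPM + 1) scale, where the median of all genes tested was -0.02, and 5 of the 7 were at least 2-fold higher on that scale, as 5.75% of all genes tested were. In the limma fit over all genes the 7 were called as risen, against 28.4% of all genes, and again nothing is read from it. In a bulk sample a change in the number of cells that carry a transcript and a change in the amount per cell cannot be told apart.

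**Figure D1:**
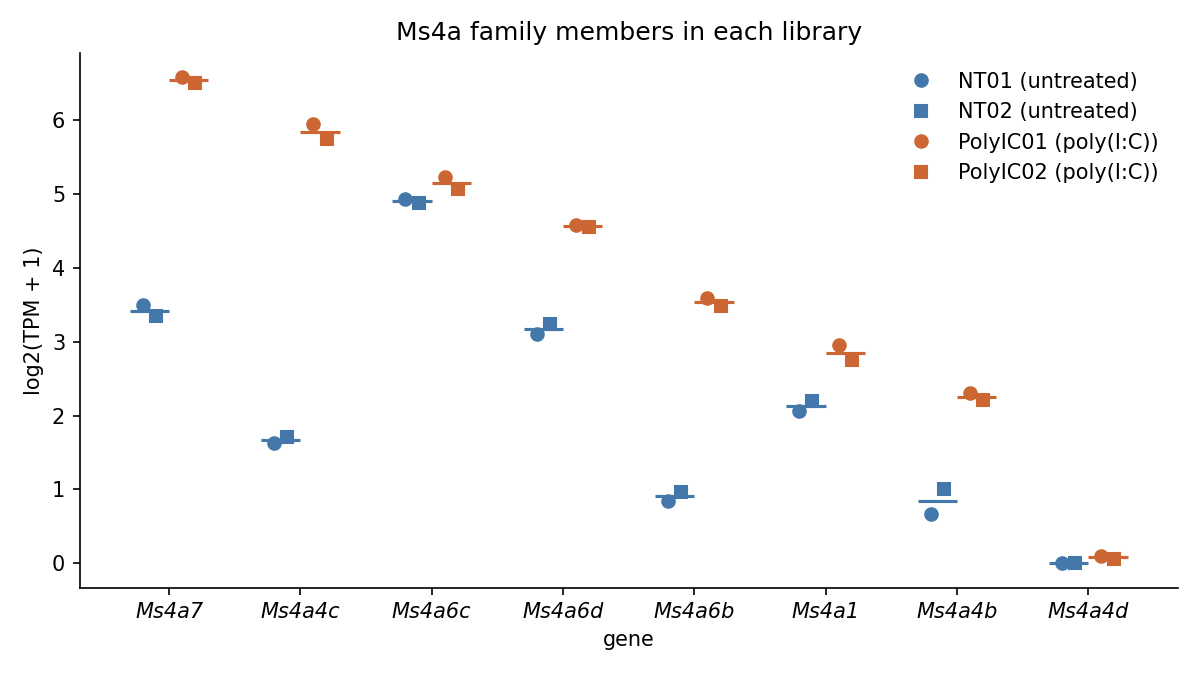
Level of each member in each of the 4 libraries, as log2(TPM + 1), with short lines for the group means of 2 libraries; genes are ordered by their treated mean. The treated points lie above the untreated ones in every gene, with the widest gap in Ms4a4c and narrow gaps in Ms4a6c and Ms4a4d.

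Ms4a4c showed the largest difference of the family. It stood at 2.10 and 2.29 TPM untreated, against 60.6 and 52.6 TPM treated. The means were 2.19 ± 0.131 and 56.6 ± 5.70 TPM (SD, n = 2 libraries per group here and below), a ratio of 25.8 and a log2(TPM + 1) difference of 4.17 (SE 0.086), higher than that of 99.8% of the genes tested. Its neighbour and relative Ms4a4b, known from mouse T cells, where its product associates with the receptor GITR, was far lower. It had 0.593 and 1.01 TPM untreated against 3.94 and 3.63 TPM treated, a ratio of means of 4.72 and a log2 difference of 1.42 (SE 0.136). Ms4a4d was listed at 0 in both untreated libraries and at 0.0700 and 0.0446 TPM in the treated ones, so no fold is given. The windows of Ms4a4b and Ms4a4c shown above are alike, and the log2(TPM + 1) differences of the genes were 1.42 and 4.17. Whether the window of Ms4a4c, which lies inside the gene, belongs to the transcript behind its value was not checked. Nothing more is read from this pairing.

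The value of Ms4a4c rests on a transcript that RefSeq only predicts. That transcript, XM_006527250, made up 100% and 91.2% of the untreated and 93.3% and 97.7% of the treated level. The curated transcript NM_029499 was listed at 0 without poly(I:C); with it, PolyIC01 had 2.81 TPM and PolyIC02 0.147 TPM, so 1 library decides its mean. With curated transcripts alone the log2(TPM + 1) difference of Ms4a4c was 1.06 in place of 4.17. Sequence is shared between the branch's genes too: of the words of 31 bases in the GENCODE transcripts of Ms4a4c, 17.1% also occur in transcripts of other genes, most of them in Ms4a4b. These words were counted in GENCODE transcripts and not in the predicted RefSeq transcript, so they give no size for the error of its TPM. How TPM divides between these copies was not tested.

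Ms4a7, a gene that marks macrophages and in the brain the macrophages at its borders, was the most abundant member after treatment. It stood at 10.3 and 9.19 TPM untreated, against 94.9 and 89.6 TPM treated, a ratio of means of 9.48 and a log2 difference of 3.12 (SE 0.065). Its share of the members' summed TPM was 18.9% and 17.0% without and 40.004% and 41.3% with poly(I:C). Of its words of 31 bases 1.42% occur in other genes' transcripts, and 0 in those of another member. Most of it was the curated transcript NM_027836, with 9.92 and 9.01 TPM untreated against 84.8 and 82.6 TPM treated. A second curated transcript, NM_001025610, went from 0.341 and 0.179 TPM to 10.1 and 6.90 TPM, which is 3.32% and 1.95% of the gene without and 10.6% and 7.70% with poly(I:C).

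The Ms4a6 members ran from a log2(TPM + 1) difference of 0.25 to one of 2.64. Ms4a6b had 0.801 and 0.959 TPM untreated against 11.1 and 10.2 TPM treated, a ratio of means of 12.1 and a log2 difference of 2.64 (SE 0.094). Ms4a6d, whose product in mouse macrophages partners the receptor VSIG4, went from 7.62 and 8.47 TPM to 23.0 and 22.4 TPM, a ratio of 2.82 and a log2 difference of 1.39 (SE 0.068). Ms4a6c, the most abundant member in untreated cells, hardly differed, at 29.7 and 28.4 TPM without and 36.7 and 32.7 TPM with poly(I:C). Its ratio of means was 1.20 and its log2 difference 0.25 (SE 0.066), which is higher than that of 74.0% of the genes tested. The 48 identical bases in the windows of Ms4a6b and Ms4a6c stand beside ratios of 12.1 and 1.20. The ratio of Ms4a6c is that of its summed transcripts, and to which of them its window belongs was not checked. Nothing more is read from this pairing. Of the members' summed TPM, Ms4a6c held 54.7% and 52.7% in the untreated libraries and 15.5% and 15.1% in the treated ones.

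The sum of Ms4a6c is made of transcripts whose levels went opposite ways. The curated transcript NM_028595 had 16.9 and 16.3 TPM untreated against 25.4 and 22.4 TPM treated, a ratio of means of 1.44. The other curated transcript, NM_001166376, had 10.9 and 10.3 TPM untreated against 8.59 and 8.46 TPM treated, a ratio of 0.802. The groups do not overlap for either transcript. NM_028595 held 56.7% and 57.2% of the gene without and 69.1% and 68.5% with poly(I:C). The split between transcripts of 1 gene is an estimate from shared sequence, with no error given in the table. The gene also shares sequence with a neighbour: 58.1% of its words of 31 bases, with either strand counted, occur in other transcripts. These are mainly transcripts of BE692007, a long noncoding RNA gene annotated on the other strand of the same place. Whether reads were shared between these genes was not tested. BE692007 itself stood at 0.297 and 0.179 TPM untreated against 0.486 and 0.372 TPM treated.

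**Figure D2:**
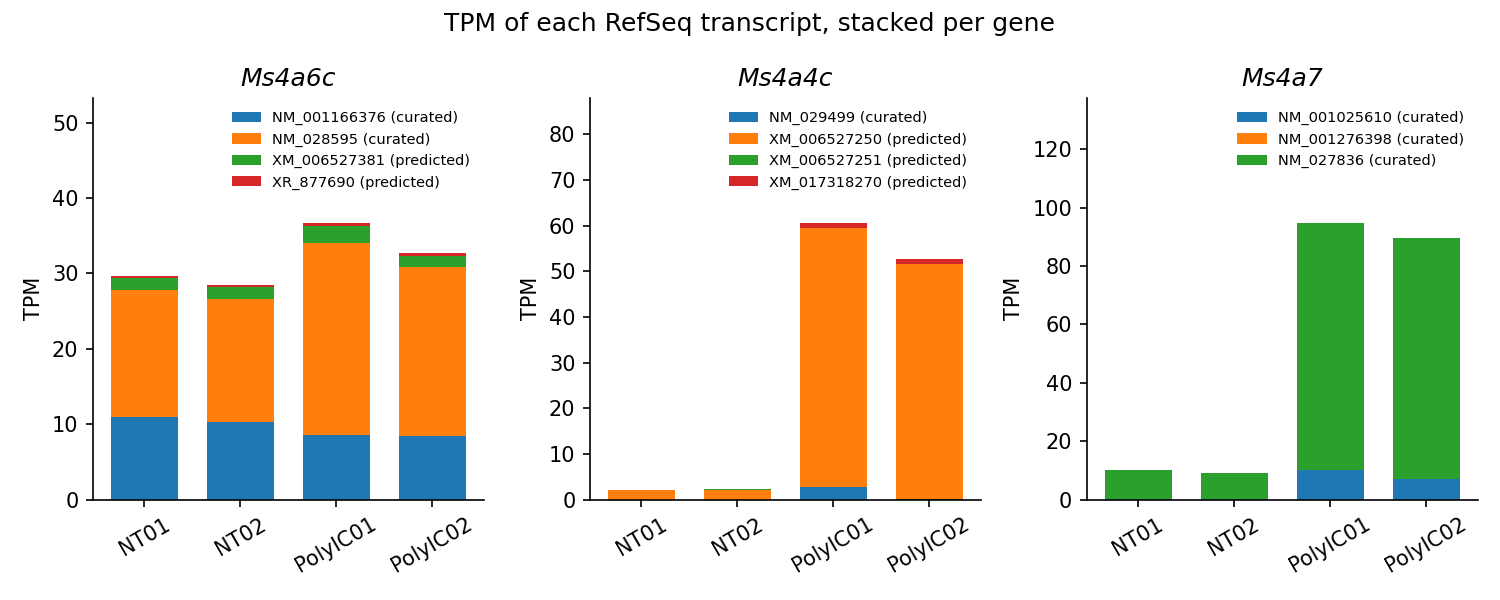
TPM of each RefSeq transcript of Ms4a6c, Ms4a4c and Ms4a7, stacked per library, with a separate linear axis from 0 for each gene. In Ms4a6c the lower band (NM_001166376) is thinner and the band above it (NM_028595) thicker in the treated libraries, while a single predicted transcript makes up nearly all of Ms4a4c.

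Ms4a1, which encodes CD20 and marks B cells, was present at a low level and was modestly higher with treatment. It had 3.18 and 3.58 TPM untreated against 6.74 and 5.76 TPM treated, a ratio of means of 1.85 and a log2 difference of 0.73 (SE 0.103). The other B cell markers gave no matching signal. None of the 9 listed reached the expression limit, and their summed level was 0.548 and 0.712 TPM untreated against 0.654 and 0.411 TPM treated. T cell markers, which bear on Ms4a4b, summed to 1.88 and 1.46 TPM without and 2.53 and 2.43 TPM with poly(I:C) over the 7 of 8 found in the table. Cd3e and Cd3g were listed at 0 in all 4 libraries, and Cd3d rose from 0.842 ± 0.233 to 1.53 ± 0.0861 TPM (adjusted p = 0.0187 in limma).

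Macrophage and monocyte markers moved beside Ms4a7 in part. Of 13 listed genes 9 could be tested, and 6 rose (Fcgr1, C1qa, C1qb, C1qc, Cd14 and Ccr2), 1 fell and 2 did not pass, where 28.4% of all genes rose and 32.4% fell. The list summed to 569.7 and 564 TPM untreated against 773 and 802 TPM treated. The complement gene C1qb had the largest rise (12.3 ± 0.738 to 125 ± 3.75 TPM) and Lyz2, the lysozyme gene, the fall (218 ± 0.634 to 103 ± 5.90 TPM). Fcgr1, which encodes the Fc receptor CD64 of macrophages and monocytes, rose from 0.327 ± 0.0404 to 4.71 ± 0.0700 TPM (adjusted p = 1.87e-05 in limma), and reached the expression limit through the treated libraries, so a rise was the change it could show. Cd68, also a macrophage marker, was abundant and did not pass, at 252 ± 0.580 untreated and 244 ± 3.19 TPM treated (adjusted p = 0.164 in limma). Of the other genes of the list that mark macrophages, Csf1r had 0.272 and 0.469 TPM untreated and was listed at 0 after treatment. Mertk and Cd163 had at most 0.0387 TPM in any library. Adgre1 did not pass, at 0.922 ± 0.0707 and 1.39 ± 0.448 TPM (adjusted p = 0.130 in limma). The part of these markers in the level of Ms4a7 was not tested.

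Poly(I:C) changed the order of the members by level. In untreated cells the order of the group means was Ms4a6c, Ms4a7, Ms4a6d, Ms4a1, Ms4a4c, Ms4a6b, Ms4a4b and Ms4a4d, and Ms4a6b and Ms4a4b were the neighbours whose libraries overlapped. In treated cells it was Ms4a7, Ms4a4c, Ms4a6c, Ms4a6d, Ms4a6b, Ms4a1, Ms4a4b and Ms4a4d, with no overlap between neighbours. Ms4a4c moved from the fifth place to the second, and Ms4a6c from the first to the third. The place of Ms4a4c and the distances below rest on its predicted transcript. Its curated transcript had 2.81 TPM in PolyIC01 and 0.147 TPM in PolyIC02. The genes whose levels over the 4 libraries were closest to those of Ms4a4c, by Euclidean distance of log2(TPM + 1), were Ifit1 (distance 0.380), Ifit1bl1 (0.510) and Gbp2 (0.682), which belong to interferon-induced families. Those closest to Ms4a6c were Htt (0.085), Slc12a4 (0.085) and Heatr1 (0.093). With 4 libraries these distances describe level and group difference together.

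Family members outside the 8 could be tested where they were expressed. Of the other 13 Ms4a genes and the related Tmem176a and Tmem176b, 3 of 15 reached the expression limit. All 3 rose in limma, where 28.4% of all genes tested rose, and their median log2 difference was 2.70. Ms4a14, which lies between Ms4a1 and Ms4a7, had 0.977 and 0.706 TPM untreated against 10.3 and 8.93 TPM treated, a log2 difference of 2.53 (SE 0.117, adjusted p = 2.61e-05). All of its TPM came from transcripts that RefSeq predicts. Tmem176a and Tmem176b are neighbours on chromosome 6, and the product of Tmem176b is an intracellular cation channel of dendritic cells. Tmem176b rose from 0.150 ± 0.0437 to 8.50 ± 1.27 TPM (log2 difference 3.04, adjusted p = 1.58e-05 in limma) and Tmem176a from 0.146 ± 0.110 to 6.48 ± 0.977 TPM (2.70, adjusted p = 3.06e-05). Both were under 0.5 TPM in the untreated libraries and reached the limit through the treated ones, so a rise was the change they could show. A transcript that RefSeq only predicts made up 79.9% and 58.8% of Tmem176b in PolyIC01 and PolyIC02. The log2 difference of Tmem176b lay between 1.24 and 5.11 over the alternative settings.

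The remaining 12 lay under the limit. Ms4a4a, a marker of alternatively activated macrophages in human, stood at 0.0700 and 0.0607 TPM untreated against 0.409 and 0.213 TPM treated. Ms4a2, the mast cell gene, was at 0.0254 TPM in NT01, 0.0129 TPM in PolyIC02 and listed at 0 in NT02 and PolyIC01. Of 6 listed mast cell and basophil genes, 4 were listed at 0 in all 4 libraries (Cpa3, Mcpt4, Mcpt8 and Tpsb2). Kit was listed at 0 untreated and had 0.0545 and 0.0637 TPM treated, and Fcer1a had at most 0.0896 TPM. Ms4a15 reached at most 0.323 TPM and Ms4a8a at most 0.124 TPM. The other 8, Ms4a3, Ms4a5, Ms4a10, Ms4a12, Ms4a13, Ms4a18, Ms4a19 and Ms4a20, were listed at 0 in all 4 libraries.

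Levels differed by position along the cluster. From Ms4a10 to Ms4a12, over the first 8 Ms4a genes, no Ms4a gene reached the limit, and from Ms4a1 to Ms4a6d 8 of 11 did. Genes of other families within 500 kb of the ends of the cluster were taken as a comparison for this stretch of the chromosome: of 75 annotated, 51 were in the table, 20 could be tested, 9 rose, 6 fell and 5 did not pass. Of all genes tested 28.4% rose and 32.4% fell. The median difference of the 20 genes was 0.14 on the log2(TPM + 1) scale, where 3 of the 20 were at least 2-fold higher, as were 5.75% of all genes tested; by mean TPM, Tmem132a also passed 2-fold (ratio 2.07).

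The largest differences near the cluster were mixed in direction. AW112010, a long noncoding RNA gene that lies among the Ms4a genes under the expression limit and is known to be inducible in mouse macrophages, rose from 44.7 and 45.2 TPM to 132 and 118 TPM (log2 difference 1.46, SE 0.056, adjusted p = 1.47e-05 in limma). Slc15a3, a lysosomal peptide and histidine transporter gene, rose from 45.6 ± 0.310 to 114 ± 2.40 TPM (1.31), Ccdc86, a nucleolar protein gene, from 54.4 ± 1.08 to 132 ± 0.487 TPM (1.26), and Cyb561a3, which encodes a lysosomal iron reductase, from 39.6 ± 1.41 to 76.2 ± 0.960 TPM (0.93). Tmem132a rose from 2.72 ± 0.283 to 5.63 ± 0.276 TPM (0.84). Tmem109, a gene for an intracellular membrane protein, fell from 125 ± 1.62 to 68.6 ± 0.113 TPM (-0.86). Of the 15 calls near the cluster, 4 were lost under at least 1 alternative setting, those of Vps37c, Osbp, Patl1 and Tmem216.

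**Figure D3:**
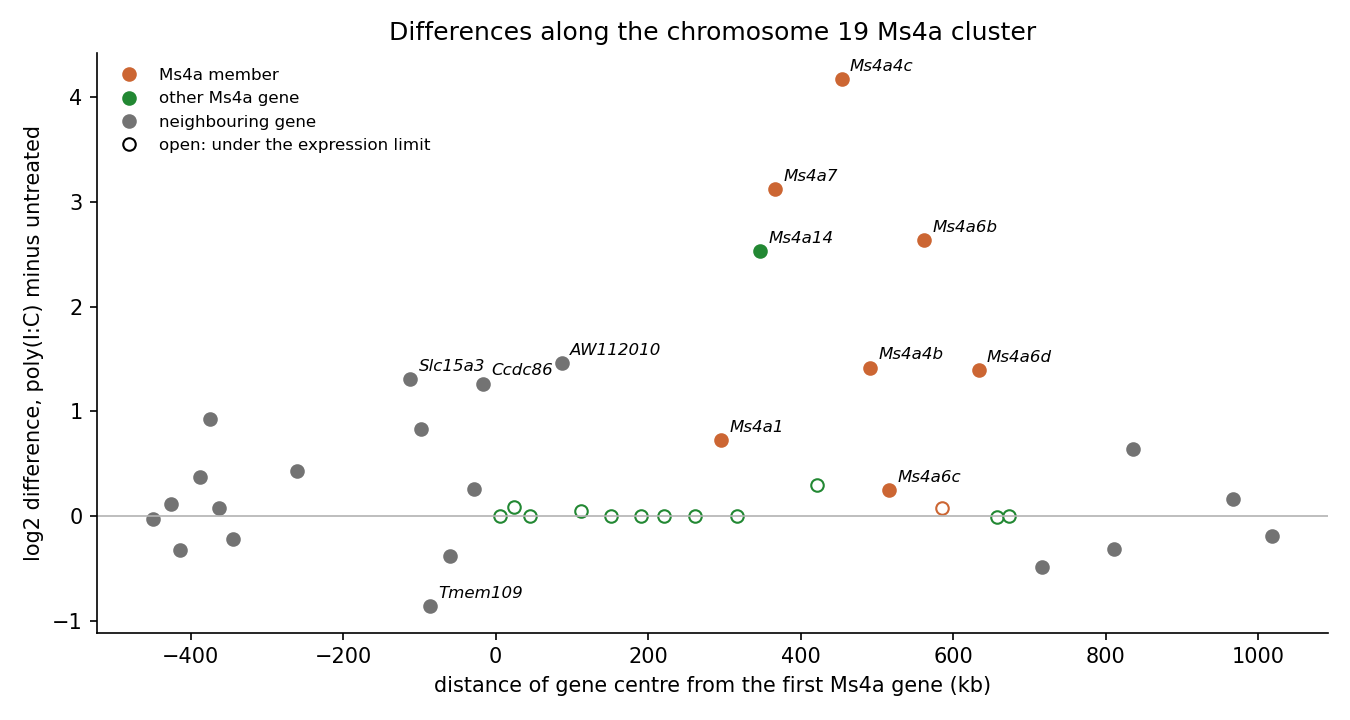
Difference in log2(TPM + 1), poly(I:C) minus untreated, of each gene against the distance of its centre from the first Ms4a gene in kb; orange points are the members, green the other Ms4a genes, grey the tested neighbours, and open points lay under the expression limit. The filled Ms4a points lie between about Ms4a1 and Ms4a6d, and the Ms4a genes on the left are open points near 0.

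Genes whose products associate with an MS4A protein, or are linked to one, moved in both directions. Of 14 listed 11 could be tested: there were 7 rises, 2 falls and 2 without a call, around a median log2 difference of 0.46, where 28.4% of all genes tested rose and 32.4% fell. Clec7a encodes Dectin-1, the beta-glucan receptor that associates with MS4A4A in macrophages. It rose from 11.9 and 12.2 TPM to 72.0 and 70.0 TPM (log2 difference 2.46, SE 0.044, adjusted p = 1.51e-06 in limma), while Ms4a4a itself stayed under 0.5 TPM. Cd40, a receptor for T cell help, rose from 41.9 ± 0.456 to 166 ± 0.123 TPM (1.96). Fcer1g, the signalling gamma chain shared by Fc receptors, rose from 70.6 ± 2.13 to 134 ± 3.07 TPM (0.92), although Fcer1a, the alpha chain gene of the IgE receptor, reached at most 0.0896 TPM. Smaller rises were those of the calcium channel gene Orai1 (0.54), the progranulin gene Grn (0.48) and the kinase gene Lyn (0.46). Tnfrsf18, which encodes the Ms4a4b partner GITR, stood at 4.72 and 5.09 TPM untreated against 4.65 and 4.16 TPM treated (-0.13, adjusted p = 0.263). The calls for Syk (-0.22) and Stim1 (-0.27), which fell, were each lost under 4 settings, with adjusted p up to 0.0788 and 0.187 in limma.

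Tetraspanins also have a fold of several membrane spans but are an unrelated family, and they served as a comparison. Of 31 listed 19 could be tested: 6 rose, 7 fell and 6 did not pass, so that 13 of 19 passed, near the 60.8% of all genes tested (28.4% rose and 32.4% fell). On the log2(TPM + 1) scale 0 of the 19 were 2-fold higher and 0 were 2-fold lower, and their median difference was -0.07; by mean TPM, Tspan4 was more than 2-fold lower (ratio 0.471). The largest differences were falls of Tspan4 (6.93 ± 0.759 to 3.26 ± 0.144 TPM, -0.89), the leukocyte gene Cd37 (41.9 ± 0.306 to 22.7 ± 0.0154 TPM, -0.85), Tspan13 (-0.85), Tspan9 (-0.68) and Cd9 (-0.52), and a rise of Rom1 (0.65). All of these passed in limma, with adjusted p between 1.77e-05 and 0.00956. Whether the families differ was not tested, since the Ms4a members were picked on this contrast.

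**Figure D4:**
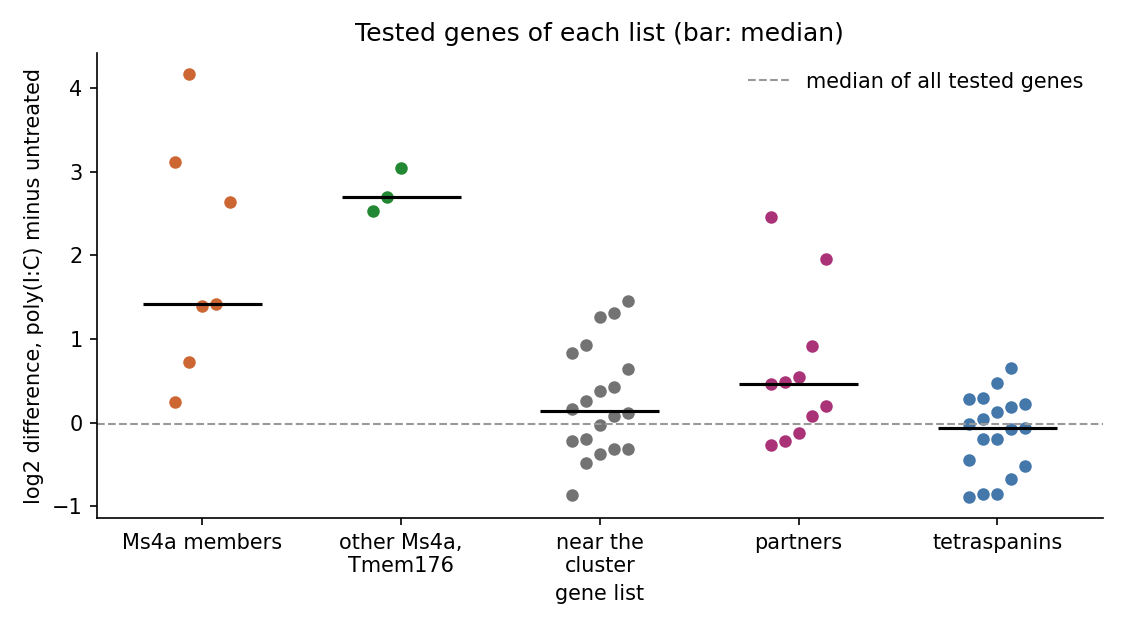
Difference in log2(TPM + 1), poly(I:C) minus untreated, of each tested gene by list, with a bar for the median of the list and a dashed line for the median of all genes tested. The members spread from 0.25 to 4.17, while the tetraspanins stay between -0.89 and 0.65.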

How the data were processed

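Polyadenylated RNA of untreated and poly(I:C)-treated MuTuDC1940 cells was sequenced from libraries of a directional kit, per the labels' protocols. Among tools and builds, kallisto 0.42.4, bcl2fastq 2.20.0.422 and GRCm38 appear without roles in the submitters' processing notes; the sources used here do not give whether quantification used strand. Per RefSeq transcript, the deposited table is read as TPM, because each column used sums to 1000000, although the table is named for another unit. TPM keeps no depth, so depth is unknown and no counting interval is given; an entry of 0 is read as listed at 0.

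Over its 6 columns of values the header has 5 names and, behind NT01, an empty cell, so later names may stand 1 column off. For the 4 columns used both readings give 1 and the same group; 2 further columns of values were not used. The labels do not say that samples are separate cultures, so p-values measure the spread between these libraries only.

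Of 107384 transcripts, 86722 (80.8%) matched a symbol by accession without version and were summed per gene; a transcript of a member without a match is not counted. Genes averaging 0.5 TPM or more (12520) were fitted with limma 3.58.1 in R 4.3.3 on log2(TPM + 1), with a robust variance trend; Benjamini-Hochberg adjustment covered all of them; a gene rose or fell at an adjusted p under 0.05. This scale understates the change of low genes; ratios are of mean TPM. The fit was tried on simulated data in which a small set of genes rose, none of them low in untreated cells. It does not show how the fit performs for low genes or where most genes change. Pairs of promoter windows were aligned with Biopython 1.88, and shared words were counted in GENCODE transcripts, which may not be the set the authors used. Members, lists and tests were chosen with earlier results of these data known. All members and all tested relatives are named, with up to 6 passing genes of largest difference in each other list, and the 3 genes nearest to the members with the largest and the smallest difference; markers are given by counts, with defining genes named after their values were seen, as were the genes whose calls were lost and those under the limit.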

Additional observations from a re-analysis of the deposited data

How the results depend on the processing

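Each of the 7 counts kept within 1.5 times its value under all 10 alternatives (70 of 70 values). These were a pseudocount of 0.1, no filter, a mean of at least 2 TPM, quantile normalization, curated transcripts alone, limma without trend or robust moderation, and each library left out, where the lone library left in a group is assumed to vary like the rest. The number of members at least 2-fold higher was 5 under each. With curated transcripts alone Ms4a4c stayed among them narrowly, at a log2 difference of 1.06 against a limit of 1. The transcript then left, NM_029499, was listed at 0 in untreated cells. Its treated level came almost wholly from PolyIC01 (2.81 TPM), as PolyIC02 had 0.147 TPM. A rise was the only change it could show, so this setting tests neither the place of Ms4a4c among the 5 nor its sign. Over all genes 2561 to 3717 rose and 3381 to 4524 fell; of the relatives 2 to 3 passed, since Ms4a14 has no curated transcript in the table. With each library left out in turn, 11 to 15 genes near the cluster, 7 to 9 partners and 13 tetraspanins passed. None of the 7 members tested changed sign; Ms4a4d, under the expression limit, was not run. That of Ms4a4c was 1.06 with curated transcripts alone, as its predicted transcript is then left out, and between 4.07 and 4.62 otherwise; a pseudocount of 0.1 gave larger values for low members, such as 2.15 for Ms4a4b and 3.46 for Ms4a6b. No paired analysis was possible because the header does not settle which replicate number the columns after NT01 carry. Values under about 0.5 TPM, such as those of Ms4a4d and Ms4a4a, cannot be ranked without the depth of the libraries.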
